A study of Oryza sativa Indica Group with 12 samples.

Results

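TDR, PTC1 and AP25 are 3 rice genes of the tapetum, the innermost layer of the anther wall. They were chosen by name, each with the probe set that the array tables pair with it, and are 3 of the 17905 genes that could be paired with a probe set. Their signal was followed through 4 stages of anther development in the indica variety IR64. The stages were pre-meiotic anthers (PMA, labelled as 350 to 450 µm long), meiotic anthers (MA, 500 to 850 µm), anthers with single-celled pollen (SCP, 900 to 950 µm) and anthers with tri-nucleate pollen (TPA, 2000 to 2500 µm). Each stage had 3 biological replicates of anthers bulked from several plants, which gives 12 Affymetrix rice arrays.

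The tapetum feeds the developing microspores, secretes precursors of the pollen wall and then breaks down by programmed cell death after meiosis. TDR (Tapetum Degeneration Retardation) is a basic helix-loop-helix (bHLH) transcription factor required for this breakdown, PTC1 (Persistent Tapetal Cell1) is a PHD-finger protein required for it as well, and AP25 is an aspartic protease that promotes the death of plant cells. In rice, AP25 is known as a target of EAT1, a bHLH factor that acts after TDR.

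TDR (locus LOC_Os02g02820, also named OsbHLH005) lies on chromosome 2, PTC1 on chromosome 9 and AP25 on chromosome 3. Each of these genes had 1 probe set, so that no gene could be checked by another. That of PTC1 is of a class (ending _s_at) whose probes are shared by more than 1 transcript. For TDR the study also designed a primer pair for quantitative PCR, which was not compared here with the sequence of the array probe set:
TDR forward primer: gctggacctgccttcttcaa
TDR reverse primer: gcgcatgcatccctatgg
The PCR values themselves were not analysed here.

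Signal means the deposited GC-RMA intensity, which is linear. Array medians lay between 6.83 and 7.33, and a signal at or under 10 is the level at which the study takes a gene as absent. Values of different probe sets carry different hybridization efficiencies, so that levels are compared only within a gene. The arrays of a stage correlated at 0.989 to 0.992 in PMA and 0.998 in MA, 0.989 to 0.998 in SCP and 0.967 to 0.984 in TPA. SCP replicate 3 stood apart from the other SCP arrays, with 9.03% of the probe sets over 10 differing at least 2-fold from the mean of the other arrays of the stage, against 2.81% and 2.87% for SCP replicates 1 and 2. The TPA arrays differed among themselves by the same measure in 9.14% to 19.0% of probe sets. Another person ran the MA arrays than ran the rest, and the effects of person and of meiosis cannot be told apart. In bulked anthers, fewer cells of a type and less RNA per cell cannot be told apart either.

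TDR was high in MA and SCP anthers and low before and after. Its signal was 98.9, 126.7 and 227.0 on the PMA arrays, 3855, 3711 and 4834 on the MA arrays, 3977, 3768 and 5187 on the SCP arrays and 92.0, 102.5 and 50.7 on the TPA arrays. Every MA and SCP array lay far above every PMA and TPA array, the MA and SCP arrays overlapped, and so did the TPA and PMA arrays. All 12 arrays were over 10, so that TDR was above background in every stage.

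The mean signal of TDR was 151 ± 67.4 in PMA, 4133 ± 611 in MA, then 4311 ± 766 in SCP and 81.7 ± 27.4 in TPA (SD, n = 3 each). Set against its own highest stage, TDR stood at 3.50% in PMA, 95.9% in MA and 1.90% in TPA. The bHLH factor had thus reached nearly its full level by meiosis.

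PTC1 was over background in SCP anthers and in no other stage. Its signal was 8.72, 8.76 and 8.88 in PMA, 8.78, 7.28 and 8.78 in MA, 2676, 2747 and 4180 in SCP, and 9.05, 9.07 and 9.19 in TPA. The 9 arrays of PMA, MA and TPA all lay at or under 10, and the 3 SCP arrays stood far above all of them. SCP replicate 3, the array that stood apart in its stage, was the highest for PTC1, at 1.54 times the geometric mean of the other SCP arrays.

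The mean signal of PTC1 was 8.79 ± 0.0836 in PMA and 8.28 ± 0.864 in MA, 3201 ± 848 in SCP and 9.10 ± 0.0715 in TPA (SD, n = 3 each). The means under 10 are background values and carry no order. Against the background limit of 10, PTC1 was at least 313-fold higher in SCP anthers. This is a lower bound, since none of the other stages gave a measured level.

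AP25, the protease, had low but measurable signal before and during meiosis, a very high signal in SCP and almost none in TPA. The arrays read 400.7, 650.4 and 751.3 in PMA, 294.3, 266.0 and 250.1 in MA, 19707, 20565 and 17408 in SCP, and 11.5, 5.45 and 6.57 in TPA. The arrays of no 2 stages overlapped. In TPA, 1 of 3 arrays was over 10.

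The mean signal of AP25 was 601 ± 180 in PMA, 270 ± 22.4 in MA, then 19227 ± 1632 in SCP and 7.83 ± 3.20 in TPA (SD, n = 3 each). As a share of its SCP level this is 3.12% in PMA, 1.40% in MA and 0.0407% in TPA. Unlike PTC1, the protease was therefore over background in 2 stages before its peak, and unlike TDR it was at background in mature anthers.

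**Figure D1:**
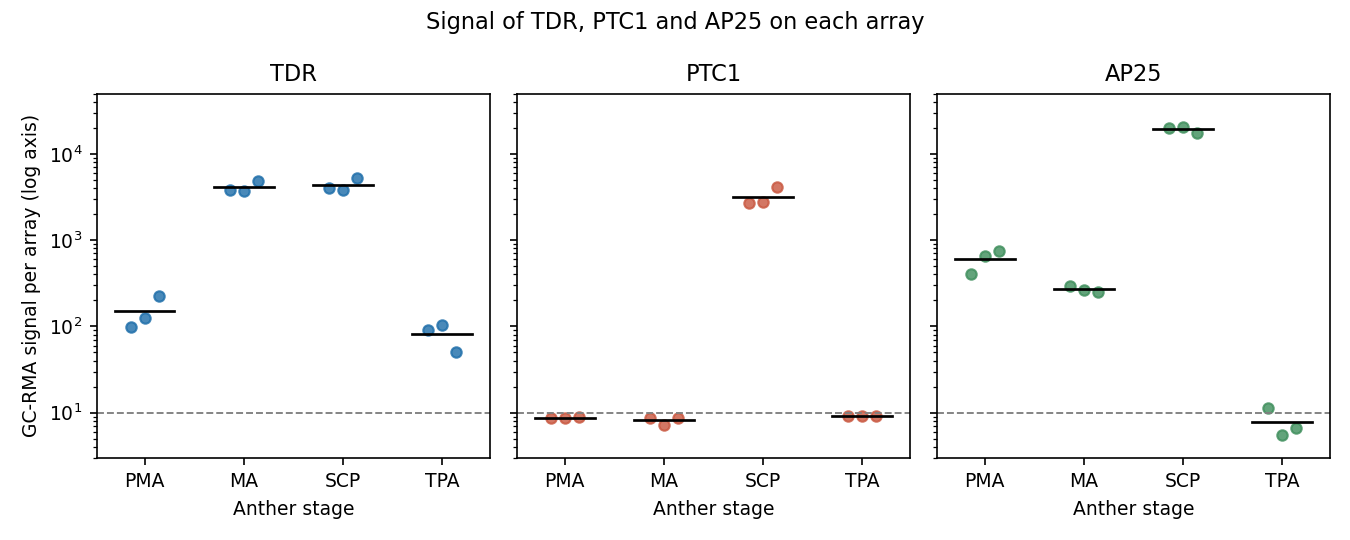
Signal of TDR, PTC1 and AP25 (GC-RMA intensity, log axis) on each of 3 arrays (points) of PMA, MA, SCP and TPA anthers, with the stage mean as a bar and the background limit of 10 dashed. TDR is high in both MA and SCP, whereas PTC1 leaves the background and AP25 reaches its peak in SCP, and all 3 are low in TPA.

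Over the 4 stages, all 3 genes passed limma's moderated F-test (adjusted p up to 0.005, and at least 2-fold between the highest and lowest stage), beside 31.8% of all 57258 rice probe sets. The adjusted p was 8.5e-07 for TDR, 3.72e-10 for PTC1 and 1.88e-08 for AP25. The same limits were used for each pair of stages below, and a gene is called higher or lower only where it passed both. Adjacent steps share the arrays of 1 stage.

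From PMA to MA, only the bHLH regulator was called. TDR was 29.0-fold higher in MA than in PMA, a log2 fold change of 4.86 with a standard error of 0.35 (limma adjusted p = 2.24e-05). Of all probe sets, 3.31% were called higher at this step. By an equal-variance test of each probe set on the compared stages alone, without moderation, this call of TDR and its call for SCP against PMA were lost at the same fold changes. PTC1, under 10 on the arrays of both stages, had a log2 fold change of -0.09 (limma adjusted p = 1). AP25 had a lower mean in MA than in PMA on arrays that did not overlap, with a log2 fold change of -1.11 and a standard error of 0.29, but this did not pass the threshold (limma adjusted p = 0.0325).

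From MA to SCP, the PHD-finger regulator and the protease were called higher together, and TDR was not called. PTC1 had a log2 fold change of 8.57 with a standard error of 0.15 (limma adjusted p = 1.37e-09). Its MA arrays were at background, and with values under 10 set to 10 the log2 fold change was 8.29, which is a lower bound. AP25 was 71.2-fold higher in SCP than in MA, a log2 fold change of 6.15 with a standard error of 0.29 (limma adjusted p = 1.15e-06). These are 2 of 3 genes, beside 3.85% of all probe sets called higher. TDR differed by 0.06 on the log2 scale (limma adjusted p = 0.967), with a 95% interval of -0.73 to 0.84. The interval reaches neither a 2-fold rise nor a 2-fold fall. Without SCP replicate 3, the log2 fold change of TDR was -0.08, that of PTC1 8.36 and that of AP25 6.22, the last 2 still called.

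From SCP to TPA, all 3 genes were called lower, beside 14.9% of all probe sets. No anthers between 950 µm (SCP) and 2000 µm (TPA) were sampled, so that the order in which the genes went off could not be seen. TDR was 54.6-fold lower in TPA, a log2 fold change of -5.77 with a standard error of 0.35 (limma adjusted p = 1.08e-06). PTC1 had a log2 fold change of -8.43 with a standard error of 0.15 (limma adjusted p = 2.54e-10), back to background. AP25 had a log2 fold change of -11.33 with a standard error of 0.29 (limma adjusted p = 3.35e-09), with 2 of its 3 TPA arrays under 10. With values under 10 set to 10, which bounds the fall by the background limit, the log2 fold change of AP25 was -10.84 and that of PTC1 was -8.29, so that AP25 was at least 1832-fold lower in TPA. The split of all calls at this step depended on the scaling. Of the probe sets called, 35.5% were higher in TPA, against 57.4% after each array was shifted to a common median, and the log2 fold changes of TDR, PTC1 and AP25 were then -5.16, -7.81 and -10.72.

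**Figure D2:**
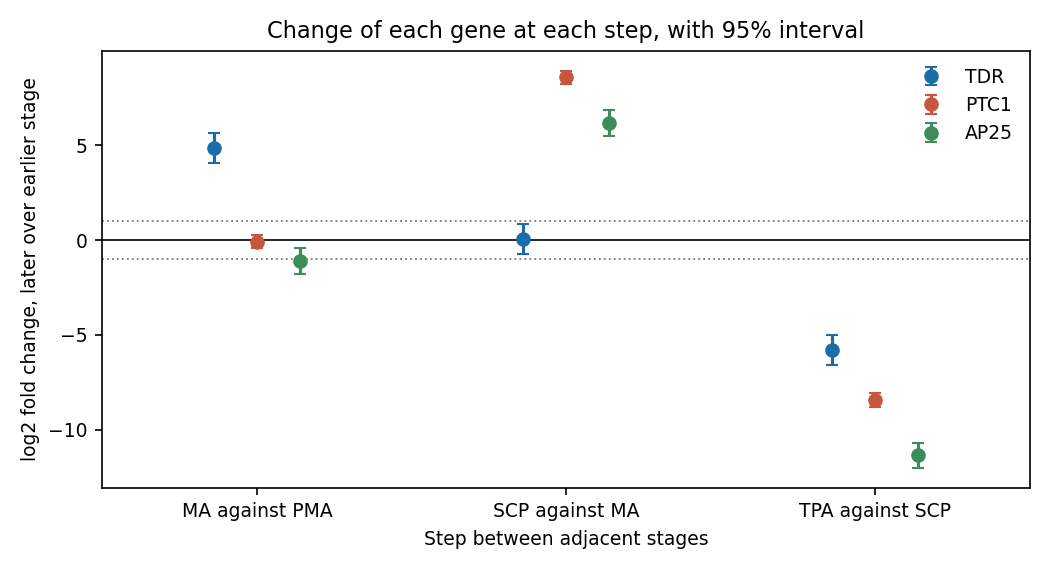
Log2 fold change of TDR, PTC1 and AP25 at each step between adjacent stages, later over earlier, from the limma fit of 12 arrays (points), with the 95% interval as bars and 2-fold marked by dotted lines. TDR is called at the first and the last step, PTC1 and AP25 at the middle and the last. The interval of AP25 at the first step, -1.78 to -0.44, lies below 0 without a call.

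The comparisons across more than 1 step separate the end states from the starting states. SCP anthers were higher than PMA anthers for all 3 genes, at log2 fold changes of 4.91 for TDR, 8.48 for PTC1 (8.29 with values under 10 set to 10) and 5.05 for AP25 (limma adjusted p = 1.05e-05, 1.53e-09 and 3.38e-06), beside 5.18% of all probe sets. Between TPA and PMA, AP25 alone was called, with a log2 fold change of -6.29 (limma adjusted p = 1.77e-07), beside 16% of all probe sets called lower. With values under 10 set to 10 it was -5.79, so that AP25 was at least 55.5-fold lower in TPA. TDR was lower in TPA than in PMA by a log2 fold change of -0.86 that did not pass the threshold (limma adjusted p = 0.0708), and this became -0.13 after the shift to a common median and -0.17 after quantile normalization. PTC1 was at background in both stages. Against MA, TPA anthers were lower for TDR (log2 fold change -5.71, limma adjusted p = 1.09e-06) and for AP25 (log2 fold change -5.18, or -4.69 with values under 10 set to 10, limma adjusted p = 7.18e-07), beside 15.7% of all probe sets called lower.

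The order of the stages thus differed between the genes. For TDR it was SCP, MA, PMA and TPA, where neither SCP and MA nor PMA and TPA were called and both pairs overlapped. For PTC1 it was SCP above a background shared by the other stages. For AP25 it was SCP, PMA, MA and TPA, where PMA and MA did not pass the threshold.

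The pattern of TDR over the 3 adjacent steps (called higher, not called, called lower) was shared by 359 of 57258 probe sets, or 0.627%, and by 240 of 17905 genes. The pattern of PTC1 and AP25 (not called, called higher, called lower) was shared by 1349 probe sets, or 2.36%, and by 642 genes. By these calls the PHD-finger regulator and the protease fall in 1 class and the bHLH regulator in a smaller one.

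The genes were also compared by the log2 ratio of their signals on each array, in which the size of a ratio has no meaning between probe sets but its change between stages does. In stages where a gene was at background, the ratio follows the other gene alone. This holds for PTC1 over TDR in PMA, MA and TPA, for PTC1 over AP25 in PMA and MA, and for AP25 over TDR in TPA. In TPA both PTC1 and AP25 were at background, so that their ratio in that stage follows no measured level. The PTC1 over TDR ratio averaged -4.01 ± 0.60 in PMA and -8.96 ± 0.17 in MA, -0.45 ± 0.13 in SCP and -3.10 ± 0.56 in TPA (SD, n = 3 each). It was lowest in MA, where TDR was on and PTC1 at background, and highest in SCP. The AP25 over TDR ratio averaged 2.04 ± 0.32 in PMA, -3.93 ± 0.30 in MA, then 2.17 ± 0.37 in SCP and -3.40 ± 0.73 in TPA. The PMA and SCP ratios overlapped, and the MA and TPA ratios overlapped as well, while every PMA and SCP array lay above every MA and TPA array. The PTC1 over AP25 ratio averaged -6.05 ± 0.46 in PMA and -5.03 ± 0.18 in MA, -2.61 ± 0.48 in SCP and 0.29 ± 0.56 in TPA.

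The AP25 over TDR ratio differed between the 4 stages by an exact permutation test over the 12 arrays (exact p = 0.00214, the same after Benjamini-Hochberg adjustment over the 3 ratios). Over PMA, MA and SCP alone, in which both genes were above background, the exact p was 0.025 over 9 arrays, where 0.00357 is the smallest the design can give. For the PTC1 ratios, which have 1 measured stage, the test compares TDR or AP25 with the background of PTC1, and its p is not given. From MA to SCP the change of AP25 exceeded that of TDR by 6.10 on the log2 scale, with no overlap of the arrays. For such a single step, 3 arrays against 3 cannot go below an exact two-sided p of 0.1, which this step reached.

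**Figure D3:**
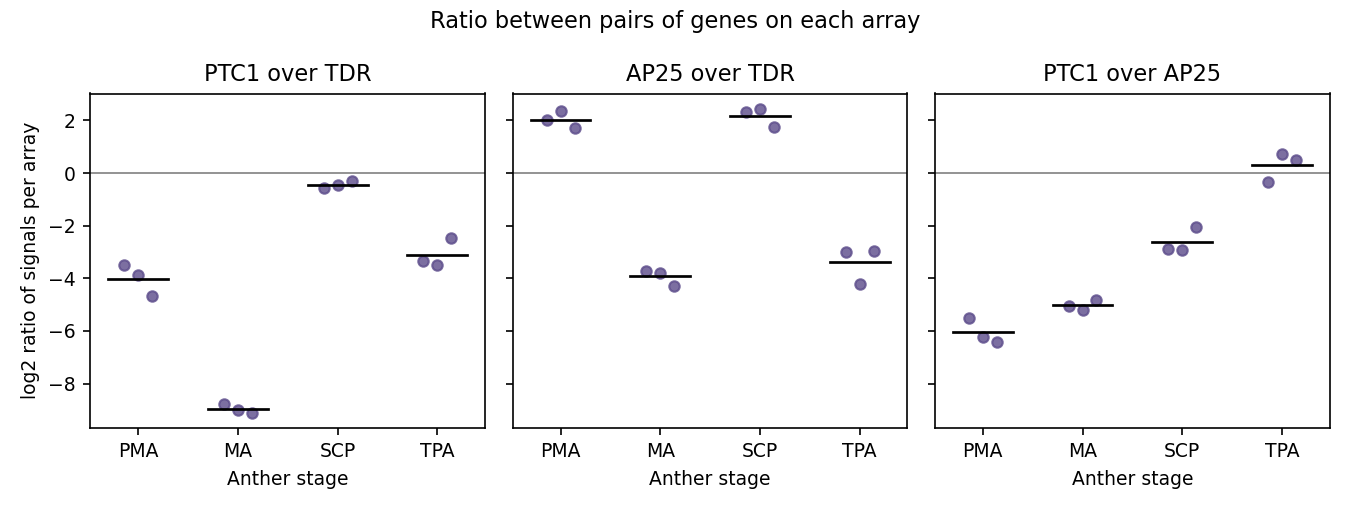
Log2 ratio of signals on each array (points) for PTC1 over TDR, AP25 over TDR and PTC1 over AP25 in PMA, MA, SCP and TPA anthers, with the stage mean as a bar. Both ratios over TDR are lower in MA than in PMA and SCP, and the AP25 over TDR ratio is low again in TPA. PTC1 is at background in PMA, MA and TPA, and AP25 in TPA.

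SCP replicate 3 also differed in the proportions of the genes. Compared with the geometric mean of the other SCP arrays, it was 1.34 times as high for TDR, 1.54 times for PTC1 and 0.865 times for AP25. On the same array TDF1 was 8.32 times, PAIR2 3.81 times and TIP2 2.26 times as high as on the other SCP arrays, and CAB2R 0.284 times, CP1 0.628 times and MSP1 0.546 times. PAIR2, a protein of the meiotic chromosome axis, and the regulators TDF1 and TIP2 had their highest stage means in MA. Other genes with their highest mean in MA moved less, with API5 at 1.26 times, TDL1A at 0.980 times and BI1 at 0.969 times. PAIR1 and SDS, also highest in MA, were at or under 10 in SCP and stood at 0.982 and 1.10 times. Other genes went both ways, with PKS2, a tapetum marker highest in SCP, at 2.55 times, UDT1 at 0.356 times, and the meiosis genes DMC1 and MEL1 at 1.29 and 1.04 times. Their part in the values of TDR, PTC1 and AP25 on this array was not tested.

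The other tapetum regulators were set beside the members in time. Of 16 regulators listed, 12 were measured, TDR and PTC1 included. TDF1, UDT1 and TGA10 were found by loci recalled from general knowledge, so that the names of these 3 were not checked against a table. From PMA to MA, 2 were called higher (TDF1 and TDR, beside 3.31% of all probe sets), 2 lower (MSP1 and TGA10, beside 3.03% of all probe sets) and 8 not called, with a median log2 fold change of 0.44 beside -0.0027 over all probe sets. From MA to SCP, 2 were called higher (EAT1 and PTC1, beside 3.85% of all probe sets) and 3 lower (API5, TDL1A and TIP2, beside 4.47% of all probe sets), with a median of 0.016 beside -0.014. From SCP to TPA, 9 were called lower (beside 14.9% of all probe sets) and 1 higher (TDL1A, beside 8.21% of all probe sets), with a median of -3.85 beside 0.038. Each array had 40.3% to 41.1% of its probe sets over 10. The medians over all probe sets, here and for the cell death genes below, thus mostly reflect background values. Among probe sets with a stage mean over 10, array medians were lower in TPA, and their alignment moved SCP by -0.11 and TPA by 0.50 on the log2 scale. GAMYB (-1.36) had the smallest called change among the 9. The call of GAMYB at this step was lost after the shift to a common median, by the equal-variance test and with only the compared stages fitted. That of TDF1 was lost by the last 2 settings, with values under 10 set to 10, with the replicate block, and without SCP replicate 2 or any 1 TPA array. The higher call of TDL1A was lost by the equal-variance test and with only the compared stages fitted. By the equal-variance test TIP2 also lost its calls from SCP to TPA and from MA to SCP, and TGA10 its call from PMA to MA.

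TDF1, a MYB factor known in Arabidopsis to act before the counterpart of TDR, was 15.9 ± 9.79 in PMA, 467 ± 59.7 in MA, then 139 ± 169 in SCP and 4.26 ± 0.0145 in TPA. It came on at the same step as TDR, with a log2 fold change of 5.16 (limma adjusted p = 0.00312), a call that was lost without any 1 of the PMA or MA arrays, with only the compared stages fitted and with the replicate block (limma adjusted p from 0.000559 to 0.0146 over the limma alternatives), and by the equal-variance test. Its SCP arrays read 31.2, 51.5 and 333.6, so that the SCP mean rests on replicate 3.

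TIP2, a bHLH factor that binds TDR in rice, had 2062 ± 526 in PMA and 5826 ± 460 in MA, 488 ± 249 in SCP and 34.5 ± 15.2 in TPA. Its MA signal was not called over PMA (log2 fold change 1.53, limma adjusted p = 0.0245), and it was called lower from MA to SCP (log2 fold change -3.69, limma adjusted p = 1.5e-04), a step at which TDR was not called. In SCP anthers TIP2 stood at 8.38% of its peak and TDR at its own highest mean.

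EAT1, the bHLH factor known to act on AP25, had 798 ± 428 in PMA, 873 ± 78.5 in MA, then 8988 ± 696 in SCP and 13.8 ± 11.7 in TPA. Like AP25, it was over background before and during meiosis, highest in SCP and close to background in TPA. EAT1 was called higher from MA to SCP (log2 fold change 3.37, limma adjusted p = 0.00371) and lower from SCP to TPA (log2 fold change -9.67, limma adjusted p = 1.4e-06). The first of these calls was lost without any 1 of the MA or SCP arrays, after quantile normalization and with the replicate block (limma adjusted p from 6.78e-05 to 0.0169 over all alternatives), in every case with the same sign.

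UDT1, a bHLH factor of early tapetum differentiation, had its highest mean before TDR came on, at 116 ± 55.6 in PMA and 35.9 ± 3.09 in MA, 21.0 ± 10.2 in SCP and 6.81 ± 0.0465 in TPA. None of its adjacent steps was called. MSP1, a receptor kinase that limits the number of sporogenous cells, was called lower from PMA to MA (log2 fold change -2.87, limma adjusted p = 7.4e-04), as was TGA10, a bZIP factor (log2 fold change -1.71, limma adjusted p = 1.64e-05). MADS3, a floral homeotic factor, was the only measured regulator with its highest mean in TPA, at 1749 ± 529. Its SCP mean was close to this, at 1629 ± 129 on overlapping arrays (log2 fold change 0.05, limma adjusted p = 0.846).

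**Figure D4:**
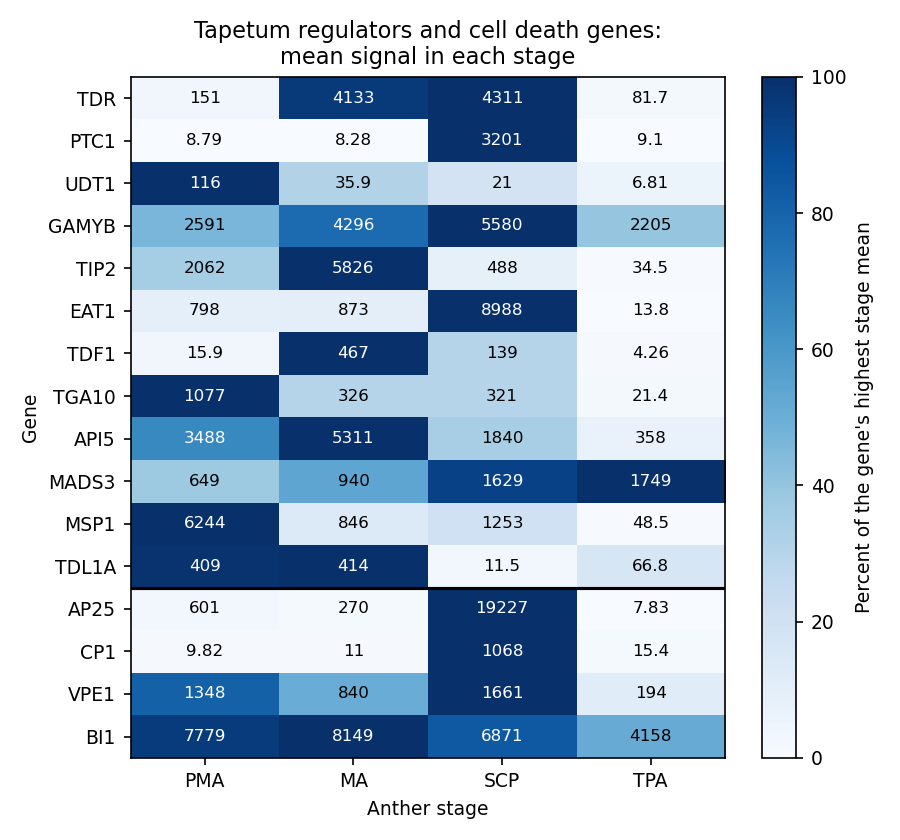
Mean signal (numbers) of the measured tapetum regulators and, under the line, of the measured cell death and protease genes in PMA, MA, SCP and TPA anthers, coloured by percent of the gene's own highest stage mean. Highest means lie in PMA (MSP1, TGA10, UDT1), MA (TIP2, TDF1, API5, TDL1A, BI1), SCP (TDR, PTC1, EAT1, GAMYB, AP25, CP1, VPE1) and TPA (MADS3). Only for MSP1, TGA10, PTC1, EAT1, AP25 and CP1 was the highest stage called over every other stage.

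Of 8 cell death and protease entries listed, 4 were measured, namely AP25, CP1, VPE1 and BI1. None of the 4 was called by limma from PMA to MA, and the equal-variance alternative likewise called 0. Their log2 fold changes at this step were -1.11 for AP25, -0.67 for VPE1, 0.16 for CP1 and 0.07 for BI1. From MA to SCP, AP25 and CP1 were called higher (beside 3.85% of all probe sets), and from SCP to TPA AP25, CP1 and VPE1 were called lower (beside 14.9%), at median log2 fold changes of 3.57 and -4.67 beside -0.014 and 0.038 over all probe sets.

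CP1, a papain-type cysteine protease, changed at the same steps as AP25 but began at or near background. It had 9.82 ± 0.401 in PMA, 11.0 ± 1.12 in MA, then 1068 ± 264 in SCP and 15.4 ± 9.26 in TPA. Its log2 fold change was 6.57 from MA to SCP and -6.25 from SCP to TPA (limma adjusted p = 2.41e-06 and 7.21e-07). VPE1, a vacuolar processing enzyme with caspase-like activity, varied less before maturity, with 1348 ± 241 in PMA and 840 ± 44.4 in MA, 1661 ± 163 in SCP and 194 ± 21.2 in TPA. From MA to SCP its log2 fold change was 0.98 (limma adjusted p = 9.79e-04), which missed the 2-fold limit. Without SCP replicate 3, 3 genes of the list were called at that step. VPE1 was represented by the brightest of its 4 probe sets. BI1, an inhibitor of cell death, was the most even of the list, at 7779 ± 357 in PMA, 8149 ± 325 in MA, then 6871 ± 126 in SCP and 4158 ± 191 in TPA.

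Among 1546 named genes that passed the F-test over the 4 stages, the 5 with the highest Pearson correlation to each member on log2 values over 12 arrays were taken as its closest. The arrays fall into 4 stages, so that these values describe a shared stage pattern. For TDR they were OsSIP1;1, an aquaporin (0.988), C4, a lipid transfer protein (0.978), HRD1 (0.977), HAK13, a potassium transporter (0.971), and AGO18, an Argonaute protein (0.971). C4 shared the plateau of TDR most plainly, with 92.1 ± 69.3 in PMA and 41315 ± 3124 in MA, 40473 ± 1738 in SCP and 23.4 ± 11.7 in TPA.

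For PTC1 they were OsPht1;12, a phosphate transporter (0.999), OsABCG5, an ABC transporter (0.999), OsC3H10, a zinc finger protein (0.995), NIP4-1, an aquaporin (0.994), and BIP4, a chaperone of the endoplasmic reticulum (0.990). Like PTC1, 4 of these 5 had a mean under 10 in every stage but SCP, and NIP4-1 had 16.4 ± 0.669 in MA.

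For AP25 they were AS2, a transcription factor (0.991), CAD, a cinnamyl alcohol dehydrogenase (0.986), OsRac1, a small GTPase (0.983), KIN4A, a kinesin (0.982), and CSase, a cysteine synthase (0.977). Like AP25, AS2 had a lower mean in MA than in PMA, with 527 ± 120 in PMA, 269 ± 10.1 in MA, then 12968 ± 1429 in SCP and 32.2 ± 11.0 in TPA. No gene was among the closest 5 of more than 1 member.

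The tissue was checked with marker genes of its cell types. Of 8 tapetum markers 6 were measured, and their summed signal was 188 to 397 over the PMA arrays, 14755 to 14899 in MA, 139850 to 144850 in SCP and 705 to 4479 in TPA. In SCP, 5 of the 6 had their highest mean (C6, CYP703A3, CYP704B2, PKS1 and PKS2), and RTS was over 10 in TPA alone. The sum adds different probe sets, and its largest parts in MA were CYP703A3 (7790 ± 226) and CYP704B2 (3796 ± 118). From PMA to MA, 4 of the 6 were called higher (CYP703A3, CYP704B2, PKS1 and PKS2, beside 3.31% of all probe sets). C6 and RTS were not called at this step. In MA these 4 stood at 17.2%, 14.8%, 5.62% and 13.9% of their SCP means and C6 at 0.116%, against 95.9% for TDR.

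Of 10 meiocyte markers 5 were measured, at summed signals of 8164 to 9828 in PMA and 4064 to 4299 in MA, 157 to 392 in SCP and 90.1 to 138 in TPA. MEL1 carried the PMA sum, at 7716 ± 604 in PMA and 57.1 ± 7.63 in MA. PAIR2 had 621 ± 168 in PMA and 3558 ± 107 in MA, and SDS 18.8 ± 8.52 in PMA and 84.9 ± 6.36 in MA. DMC1 was highest in PMA, with 569 ± 185 in PMA and 457 ± 14.0 in MA. PAIR1 was close to background in both, at 12.5 ± 1.67 and 14.4 ± 4.31. Of 9 mature pollen markers 5 were measured, at 29.0 to 33.7 in PMA, 28.4 to 29.2 in MA, then 23.9 to 24.4 in SCP and 65162 to 69264 in TPA, and all 5 were at or under 10 in MA and SCP. Of 3 markers of the green wall 2 were measured, at 270 to 1072 in PMA and 1539 to 1615 in MA, 2513 to 7687 in SCP and 152 to 1020 in TPA. Mature pollen markers were thus high in TPA, where all 3 genes were low, and the part of cell composition in the values of TDR, PTC1 and AP25 was not tested.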

How the data were processed

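RNA of 12 anther samples was hybridized to the Affymetrix rice array. The authors scanned the arrays with GCOS and normalized them by GC-RMA, together with arrays of other tissues that are not analysed here, and deposited linear intensity values. The 123 control probe sets among 57381 were dropped, which left 57258 rice probe sets. The log2 of each value was fitted by limma 3.58.1 under R 4.3.3 with functions lmFit and eBayes (12 arrays in 1 fit, 8 residual degrees of freedom). P-values were adjusted by Benjamini-Hochberg over all rice probe sets, and calls needed an adjusted p of 0.005 or less and at least 2-fold. Ratios between genes were tested by exact permutation over samples in Python 3.11.15. The scripts were tested on simulated data. Precision is limited by the number of arrays.

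Groups were taken from the sample titles. The table of array annotation pairs 22436 probe sets with 1 gene each (17905 genes). UDT1, TDF1, TGA10, CYP704B2, PKS1 and PKS2 were paired through loci recalled from general knowledge, whose probe sets are in the supplement of the paper, so that no table used here ties these names to these values. MYB80, DTC1, bHLH138, PTC2, AP37, the metacaspases, BAG genes and oryzasin could not be paired and are not analysed here. The genes named are the 3 members, the measured genes of the lists and the 5 named genes closest to each member. The members and lists were chosen with earlier results of these data known. Gene IDs and chromosomes are those of RefSeq, and no coordinates were used. The alternatives were other tests, other scalings, a filter and a floor at 10, a replicate block and leaving out each array.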

Additional observations from a re-analysis of the deposited data

How the results depend on the processing

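Of 144 fold changes and ranges of TDR, PTC1 and AP25 under other settings, 142 kept their direction and their side of the threshold, and so did 142 of 144 with 1 array left out. Counted as kept are 3 PTC1 differences between background stages, which became 0 with values under 10 set to 10. The exceptions all concern TDR. With an equal-variance t-test its log2 fold changes of 4.86 for MA against PMA and 4.91 for SCP against PMA no longer passed. Its SCP against MA value, which was not called, ran from -0.08 to 0.17 with 1 array left out and changed sign without MA replicate 2 (-0.016) and without SCP replicate 3 (-0.084). The adjusted exact p of the AP25 over TDR ratio was 0.00558 with quantile normalization and 0.000455 with values under 10 set to 10. The test on PMA, MA and SCP alone was chosen after seeing the data.

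The equal-variance t-test called fewer probe sets, with 1346 against 3630 for MA against PMA, 6969 against 13250 for TPA against SCP, 2060 against 6717 for SCP against PMA, 6820 against 14081 for TPA against PMA and 8942 against 13700 for TPA against MA. Among tapetum regulators it called 1 against 4 for MA against PMA, 6 against 10 for TPA against SCP, 2 against 10 for SCP against PMA and 5 against 8 for TPA against PMA. With only the compared stages fitted, which leaves fewer arrays, 8810 probe sets were called for TPA against SCP and 4321 for SCP against PMA, and 5 tapetum regulators each for SCP against PMA and TPA against PMA. With 1 array left out, 6 to 9 tapetum regulators were called for SCP against PMA, 6 without SCP replicate 1. The share of calls that were higher in TPA became 57.4% against 35.5% versus SCP, 59.9% against 34.9% versus PMA and 57% against 34.5% versus MA after the shift to a common median, which moved PMA by -0.23, MA by -0.15, SCP by -0.11 and TPA by 0.50 on the log2 scale. The cause of these differences between settings was not tested.

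As percent of the highest stage, TDR in TPA moved to 2.53 with quantile normalization and 2.88 with the shift, against 1.90, and AP25 in TPA to 0.0613 with the shift, against 0.0407. The background values of PTC1 moved to 0.280, 0.252 and 0.312 in PMA with quantile normalization, the shift and the floor at 10, to 0.312 in MA with the floor, and to 0.282, 0.433 and 0.312 in TPA with the same 3 settings. With 1 array left out they lay between 0.254 and 0.324 in PMA, 0.239 and 0.305 in MA, and 0.263 and 0.336 in TPA.

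No clear pairing of the samples by replicate number was seen. The deviations of same-numbered arrays correlated at -0.064 to 0.10 over 18 pairs of arrays. In 7 of these 18 pairs the array of the later stage correlated best with its own number. With the replicate number as a block, 2856 probe sets were called for MA against PMA, 4014 for SCP against MA and 12568 for TPA against SCP, and no call of TDR, PTC1 or AP25 changed, while TDF1 lost its calls for MA against PMA and TPA against SCP, and EAT1 its call for SCP against MA. PTC1 has 1 probe set that may also detect other transcripts, no member has another probe set to compare, and signals under 10 set no level. Stages were sampled at 4 points, so that the order of genes within a stage, or between adjacent sampled stages, could not be seen.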
